A study of Homo sapiens with 3 samples.

Results

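The G1 phase of the cell cycle, in which a cell commits to copying its DNA, was examined through 10 genes listed by symbol: the inhibitors CDKN1A, CDKN1B and CDKN2A, the cyclins CCND1, CCND3 and CCNE1, the kinases CDK2 and CDK4, the retinoblastoma gene RB1 and the phosphatase gene CDC25A. They are 10 of the 11963 genes that could be named on the array, and 17 of the 19065 probe sets with a single gene symbol. A probe set is the group of short oligonucleotides on an Affymetrix array that together read one transcript. HT-29 is an established line of human colon adenocarcinoma cells. All 3 arrays came from HT-29 cultures kept with 200 U/ml interferon-γ for 24 h, which the series calls biological replicates, having been plated at 50000 cells per cm2 and grown for 24 h in McCoy's 5A medium containing 10% serum under 5% CO2. No untreated cultures were analysed here, so each value below is a level in treated cells and none measures a response to interferon-γ.

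In G1, D-type cyclins bind CDK4 and cyclin E binds CDK2, and both kinase complexes phosphorylate the RB1 protein. RB1 protein that carries few phosphates holds back the E2F transcription factors, which drive the genes of DNA synthesis. Inhibitors of the INK4 type act on CDK4, whereas those of the Cip/Kip type act mainly on complexes of CDK2. In several cell lines interferon-γ is known to slow the passage through G1, and CDKN1A is among its known target genes there.

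The probe set names in the deposited table appear displaced against the values beside them, and every gene value here rests on an order of the names inferred from the data. Across 4310 genes with several probe sets, log2 signals of a gene's first 2 probe sets, averaged over arrays, had a correlation of r = 0.60 with the inferred order and r = 0.19 with the names as deposited (rho = 0.60 and 0.19). Genes are not independent replicates. The inferred order was also cut into 20 blocks, and each block was displaced by up to 50 rows either way. In 19 of the 20 blocks, and in each of the 10 blocks that hold a G1 probe set, no displacement gave a higher agreement with the other probe sets of the same genes than the inferred order did. The order was itself inferred from such agreement, and the other probe sets kept their inferred places, so these checks are not independent support. The check in blocks reached 50 rows, whereas the inferred order moves most names by 487 or 488 rows.

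Each probe set was compared with the background of its array. The background limit was the 95th percentile of 125 probe sets of 87 genes that were listed as restricted to other tissues. It came to 162 in replicate 1, 186 in replicate 2 and 173 in replicate 3. A probe set counts as detected where its log2 signal minus the log2 limit was above 0 in limma's one-sided moderated test, with a Benjamini-Hochberg adjusted p under 0.05 over all 19065 probe sets. Of the 125 background probe sets 1 was itself detected, 38691_s_at of SFTPC. Of the 17 G1 probe sets 11 were detected, against 38.7% of all probe sets, and 8 of the 10 genes had a detected probe set, against 44% of all named genes. With no test, 12 of the 17 exceeded the limit of every array, against 41.8% of all probe sets. The median log2 signal over the limit was 1.84 for the G1 probe sets and -0.20 for all probe sets. Probe sets differ in how brightly they bind, so an order of signals between probe sets is not an order of transcript amounts.

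Median signals per array were 137 (replicate 1), 144 (replicate 2) and 141 (replicate 3), and having only 3 arrays limits how precise any value can be. Over detected probe sets the log2 signals correlated with r = 0.96 between replicates 1 and 2, 0.94 between replicates 1 and 3, and 0.89 between replicates 2 and 3, so the arrays of replicates 2 and 3 were the least alike. Markers of epithelium were detected for 9 of 9 measured genes, from the keratin gene KRT18 to the adhesion molecule gene CEACAM5. By limma 0 of 13 fibroblast, 0 of 8 endothelial, 0 of 6 T and NK cell and 0 of 4 B cell probe sets were detected, and 0 of each passed at an unadjusted p under 0.05. Of 8 myeloid probe sets 1 was detected, that of lysozyme (LYZ), which secretory intestinal cells also make. Within the fibroblast, endothelial, T and NK cell and B cell lists the genes with the smallest p were DCN (0.18 log2 units over the background limit), PECAM1 (-0.33), CD3E (-0.46) and MS4A1 (-1.36). The genes with the largest p were LUM (-7.04), CDH5 (-3.88), NKG7 (-5.63) and CD79B (-4.02) in these lists and CD163 (-2.77) in the myeloid list. In RNA from whole cultures, fewer cells with a transcript and less of it per cell cannot be told apart.

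**Figure D1:**
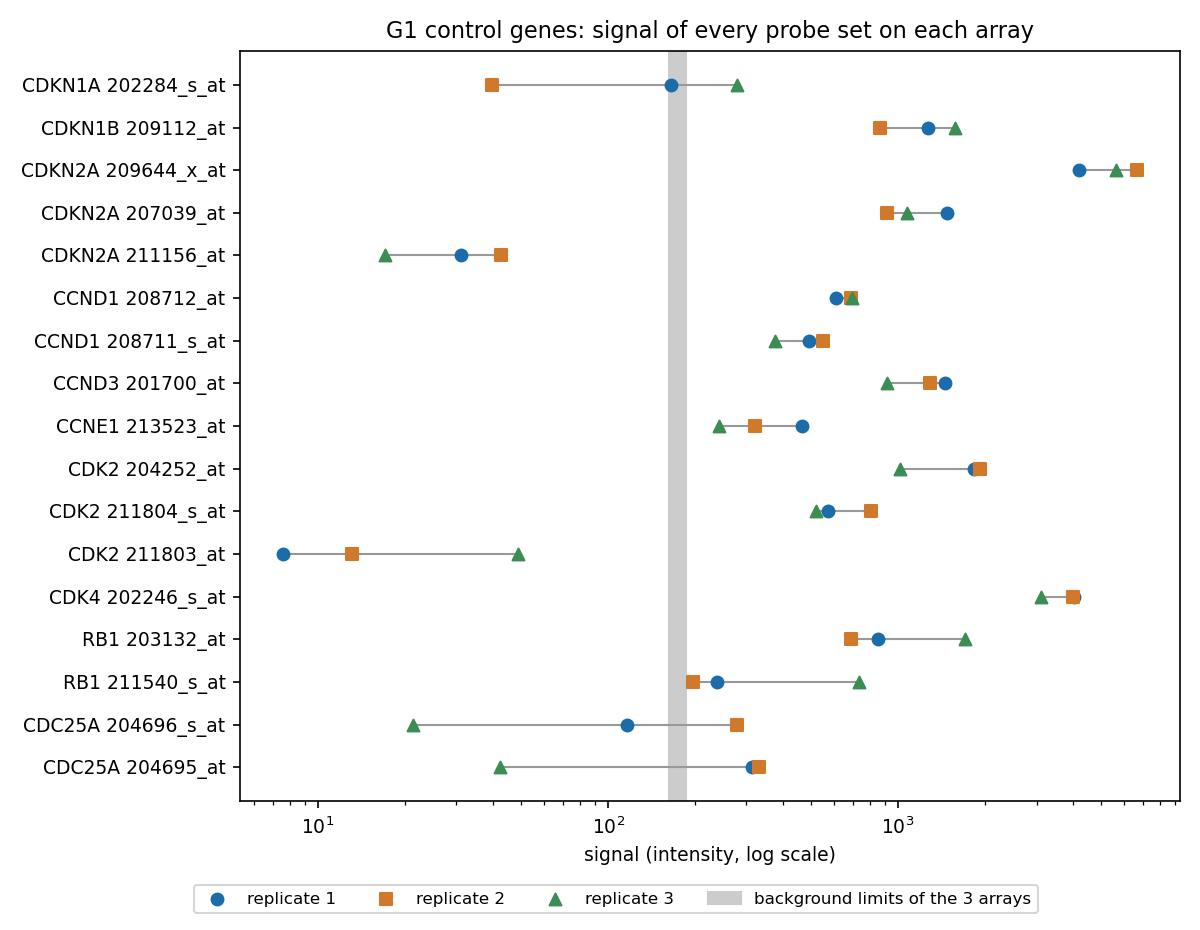
Signal of each of the 17 probe sets of the G1 control genes (rows) on a log scale, with 1 marker per array and a grey band for the background limits of 162 to 186. CDKN1A and both probe sets of CDC25A have arrays on either side of the band, and 1 probe set each of CDKN2A and CDK2 lies below it on all arrays.

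Of the 8 G1 genes with an entry in the RefSeq promoter table (CCND1 and CDK2 were not matched), 4 are shown with the 250 bases before the start: CDC25A and CDKN1A, the genes with no detected probe set, CDKN1B, the detected Cip/Kip relative of CDKN1A, and CCNE1, the detected gene nearest its limit. The build is GRCh38.p14 and each sequence reads toward the gene. CDC25A lies at chr3:48188418-48188667, minus strand. CDKN1A lies at chr6:36678464-36678713, plus strand. CDKN1B lies at chr12:12717118-12717367, plus strand. CCNE1 lies at chr19:29811741-29811990, plus strand. Capitals mark matches, on either strand, of the E2F motif in the forms TTTGGCGC and TTTCGCGC, of the GC box GGGCGG and of the CCAAT box CCAAT.
CDC25A: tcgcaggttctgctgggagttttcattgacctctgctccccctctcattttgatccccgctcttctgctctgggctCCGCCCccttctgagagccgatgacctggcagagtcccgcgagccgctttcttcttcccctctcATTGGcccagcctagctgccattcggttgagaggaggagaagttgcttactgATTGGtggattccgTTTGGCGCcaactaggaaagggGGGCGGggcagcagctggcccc
CDKN1A: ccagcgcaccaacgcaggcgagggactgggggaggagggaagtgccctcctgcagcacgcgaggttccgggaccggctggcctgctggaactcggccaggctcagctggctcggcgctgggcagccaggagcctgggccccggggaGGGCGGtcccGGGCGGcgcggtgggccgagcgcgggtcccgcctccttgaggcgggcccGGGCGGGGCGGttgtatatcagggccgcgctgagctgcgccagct
CDKN1B: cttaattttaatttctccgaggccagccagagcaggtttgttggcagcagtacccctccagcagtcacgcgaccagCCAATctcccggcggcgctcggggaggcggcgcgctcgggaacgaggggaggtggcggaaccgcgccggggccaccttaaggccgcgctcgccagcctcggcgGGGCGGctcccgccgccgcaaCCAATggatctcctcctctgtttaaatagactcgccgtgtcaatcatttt
CCNE1: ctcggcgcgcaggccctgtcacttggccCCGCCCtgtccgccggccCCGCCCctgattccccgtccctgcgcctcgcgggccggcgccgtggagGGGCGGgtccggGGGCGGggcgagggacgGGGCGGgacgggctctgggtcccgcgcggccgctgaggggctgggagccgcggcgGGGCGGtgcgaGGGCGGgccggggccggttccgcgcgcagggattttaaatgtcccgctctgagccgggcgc
In CDC25A the form TTTGGCGC was present once, its first base at -44 counted from the start, beside 2 CCAAT boxes and 2 GC boxes. That form was present in 0.55% and TTTCGCGC in 0.439% of all 35116 promoter entries of the same length. CDKN1A held 4 GC boxes, of which the last 2 overlap by 1 base, and CCNE1 held 7. CDKN1B held 1 GC box and 2 CCAAT boxes. A GC box was present in 42.6% and a CCAAT box in 32% of all entries. The interferon-γ activated site TTCNNNGAA, searched on both strands, was in 1 of the 11 entries of the 8 matched genes and in 6.57% of all entries. The entry with the match is that of RB1, its first base at -193, and it belongs to a start that lies within the RB1 gene. None of the 4 printed stretches held that site. These matches describe letters in a window and were not set against binding data.

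Of the 3 inhibitors, CDKN1B and CDKN2A were detected and CDKN1A was not. CDKN1A encodes p21, a Cip/Kip inhibitor, and was read by the probe set 202284_s_at, whose suffix marks a design shared by several transcripts. Its signals were 164.6, 39.7 and 279 in replicates 1, 2 and 3. Replicate 2 lay far below its limit of 186, replicate 1 lay at its limit and replicate 3 lay above it. The mean was 161 ± 120 (SD, n = 3), which is -0.51 ± 0.52 (SE) log2 units over the limit. CDKN1A stayed undetected when each replicate was left out in turn, including the fit without replicate 2, which put it at 0.35 log2 units over it (adjusted p = 0.317 by limma).

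CDKN1B encodes p27, the Cip/Kip inhibitor usually found in resting cells. Its probe set 209112_at gave 1265, 866.7 and 1566 in replicates 1, 2 and 3, all well above the limits. The mean was 1232 ± 351 (SD, n = 3), or 2.79 ± 0.22 (SE) log2 units over the limit (adjusted p = 8.11e-06 by limma). Replicate 2 was the lowest and replicate 3 the highest array, as for CDKN1A.

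CDKN2A encodes the INK4 inhibitor p16 and, from another first exon and reading frame, the ARF protein. Its 3 probe sets disagreed. The probe set 209644_x_at gave 4212, 6664 and 5618 in replicates 1, 2 and 3, which is 4.96 ± 0.18 (SE) log2 units over the limit (adjusted p = 2.01e-07 by limma). Its suffix marks a cross-hybridising design, so related transcripts can add to it. The probe set 207039_at, without such a suffix, gave 1473, 913.6 and 1074, which is 2.70 ± 0.21 (SE) log2 units over the limit (adjusted p = 7.24e-06 by limma). Replicate 1 was the lowest array on the first of these and the highest on the second, and replicate 2 was the highest on the first and the lowest on the second. The third, 211156_at, gave 31.2, 42.9 and 17.1 and lay below the limit on every array, at -2.61 ± 0.39 (SE) log2 units.

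All 3 cyclin genes were detected. CCND1 encodes cyclin D1, which couples growth signals to CDK4. Its probe set 208712_at gave 612, 688 and 695 in replicates 1, 2 and 3, the smallest spread of all G1 probe sets (SD 0.10 on the log2 scale). It lay 1.94 ± 0.17 (SE) log2 units over the limit (adjusted p = 1.39e-05 by limma). The second probe set, 208711_s_at, gave 493.9, 549 and 376, or 1.43 ± 0.19 (SE) log2 units over the limit (adjusted p = 0.000205 by limma). Replicate 3 was the highest array on the first and the lowest on the second, so the pair did not share an order of arrays.

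CCND3 encodes cyclin D3, another partner of CDK4. Its only probe set, 201700_at, gave 1454, 1284 and 918.5 in replicates 1, 2 and 3, with a mean of 1219 ± 274 (SD, n = 3). That is 2.79 ± 0.19 (SE) log2 units over the limit (adjusted p = 4.18e-06 by limma). CCNE1 encodes cyclin E1, which activates CDK2 late in G1. Its probe set 213523_at gave 466, 321 and 240.5, above the limit on every array, with a mean of 342 ± 114 (SD, n = 3). Of the detected G1 probe sets it lay nearest its limit, at 0.93 ± 0.25 (SE) log2 units (adjusted p = 0.00891 by limma). Without replicate 1, its brightest array, CCNE1 did not pass (adjusted p = 0.111 by limma), and it did not pass with the limit at the 99th percentile (adjusted p = 0.0611).

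Both kinase genes were detected. CDK4, the partner of the D-type cyclins, had signals of 4045, 4000 and 3106 in replicates 1, 2 and 3 on the probe set 202246_s_at. The mean was 3717 ± 529.5 (SD, n = 3), or 4.41 ± 0.17 (SE) log2 units over the limit (adjusted p = 2.67e-07 by limma). The 3 probe sets of CDK2, the partner of cyclin E, disagreed. The probe set 204252_at gave 1825, 1918 and 1017, or 3.14 ± 0.22 (SE) log2 units over the limit (adjusted p = 4.17e-06 by limma). The probe set 211804_s_at gave 574, 806 and 521, or 1.84 ± 0.18 (SE) log2 units (adjusted p = 3.53e-05 by limma). Both had their lowest array in replicate 3. The third, 211803_at, gave 7.56, 13.1 and 48.9, lay below the limit on every array and had its highest array in replicate 3.

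RB1, the pocket protein that the kinases act on, was detected by 1 of its 2 probe sets. The probe set 203132_at gave 849.7, 689.6 and 1698 in replicates 1, 2 and 3, with a mean of 1079 ± 542 (SD, n = 3). It lay 2.52 ± 0.27 (SE) log2 units over the limit (adjusted p = 4.83e-05 by limma). The second, 211540_s_at, gave 237, 195.5 and 731.5 and lay above the limit on all 3 arrays, at 0.90 ± 0.37 (SE) log2 units, but did not pass (adjusted p = 0.0539 by limma). Its adjusted p was 0.0211 without replicate 1, 0.00976 without replicate 2 and 0.311 without replicate 3. On both probe sets replicate 3 was the highest array and replicate 2 the lowest.

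CDC25A, the phosphatase that removes inhibitory phosphates from CDK2, was not detected, and its arrays were the most unequal of all G1 genes. The probe set 204695_at gave 314, 330.5 and 42.5 in replicates 1, 2 and 3, and 204696_s_at gave 116, 277.5 and 21.2. On both, replicate 3 lay well below its limit of 173 and replicate 2 lay above its limit of 186. The means lay at -0.08 ± 0.55 and -0.98 ± 0.62 (SE) log2 units over the limit. Without replicate 3, 204695_at passed at 0.89 log2 units over the limit (adjusted p = 0.00534 by limma), and 204696_s_at did not pass at 0.05 log2 units (adjusted p = 0.936).

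**Figure D2:**
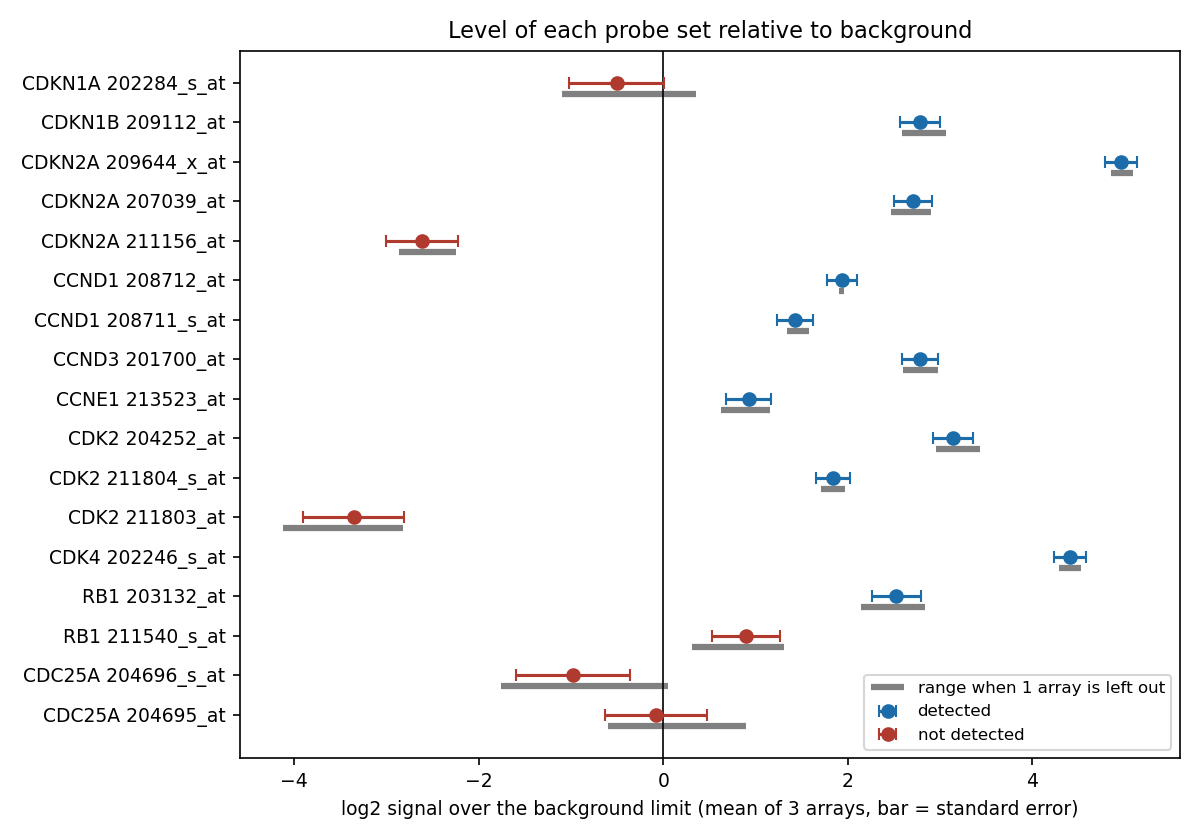
Mean log2 signal over the background limit for each G1 probe set, with bars for the standard error (n = 3) and grey lines for the range when 1 array is left out. The 11 detected probe sets lie between 0.93 and 4.96, and the grey lines of CDKN1A and both CDC25A probe sets reach over 0.

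In log2 signal replicate 3 was below the mean of replicates 1 and 2 for CDC25A, CDK4, CCND3, CCNE1 and the 2 detected probe sets of CDK2. It was above that mean for RB1, CDKN1A, CDKN1B and the undetected probe set of CDK2. The probe sets of CCND1 (0.10 and -0.47) and the detected ones of CDKN2A (0.08 and -0.11) went both ways. In CDC25A the geometric mean of replicates 1 and 2 was above replicate 3 by a factor of 7.58 on 204695_at and of 8.49 on 204696_s_at. In RB1 replicate 3 was above that mean by a factor of 2.22 on 203132_at and of 3.40 on 211540_s_at. In CDKN1A the factor was 3.45, but replicate 2 lowered the mean, with signals of 164.6, 39.7 and 279 in replicates 1, 2 and 3. CDKN1B also had its lowest array in replicate 2. In CDK2 the probe set 211803_at, which lay below the limit on every array, was higher in replicate 3 by a factor of 4.91, while 211156_at of CDKN2A, also below every limit, was lower there by a factor of 2.14. On the log2 scale replicate 3 minus the mean of replicates 1 and 2 was -0.88 for CDK2 on 204252_at and -0.38 on 211804_s_at, -0.69 for CCNE1, -0.57 for CCND3, -0.37 for CDK4 and 0.58 for CDKN1B. Over all 7373 detected probe sets the median shift was -0.04, and the central 90% ran from -1.04 to 0.78.

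Probe sets of like signal give the scale for these shifts, since dim probe sets vary more. Among 2477 probe sets whose mean log2 signal in replicates 1 and 2 lay within 0.5 of that of 204695_at of CDC25A, 12 had a shift as low, itself included. For 204696_s_at these were 23 of 2701. For RB1, 16 of 2180 probe sets of like signal had a shift as high as 203132_at and 4 of 2647 as high as 211540_s_at. For CDKN1A, whose mean holds the low replicate 2, these were 5 of 2559. For 211803_at of CDK2 they were 102 of 1271. The smaller shifts were common, since 9.31% of probe sets of like signal were as low as CDK2 on 204252_at and 17.2% as low as CCNE1. For CCND3 this share was 21.4%, for CDK4 22.5% and for 211804_s_at of CDK2 34.8%, and 7.89% were as high as CDKN1B. With 1 array a culture, a difference between arrays has no replicate check and was not tested.

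Among the 11 detected G1 probe sets, replicate 3 was the lowest array for 6 and the highest for 3, against 42.4% and 36.5% of all detected probe sets. After quantile normalization 16 of the 17 shifts kept their sign, the exception being 209644_x_at of CDKN2A, with 0.08 as deposited and -0.05 after it. The median SD over the 17 G1 probe sets was 0.48 on the log2 scale, against 0.39 over all probe sets. Over the detected G1 probe sets it was 0.34, against 0.29 over all detected probe sets.

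**Figure D3:**
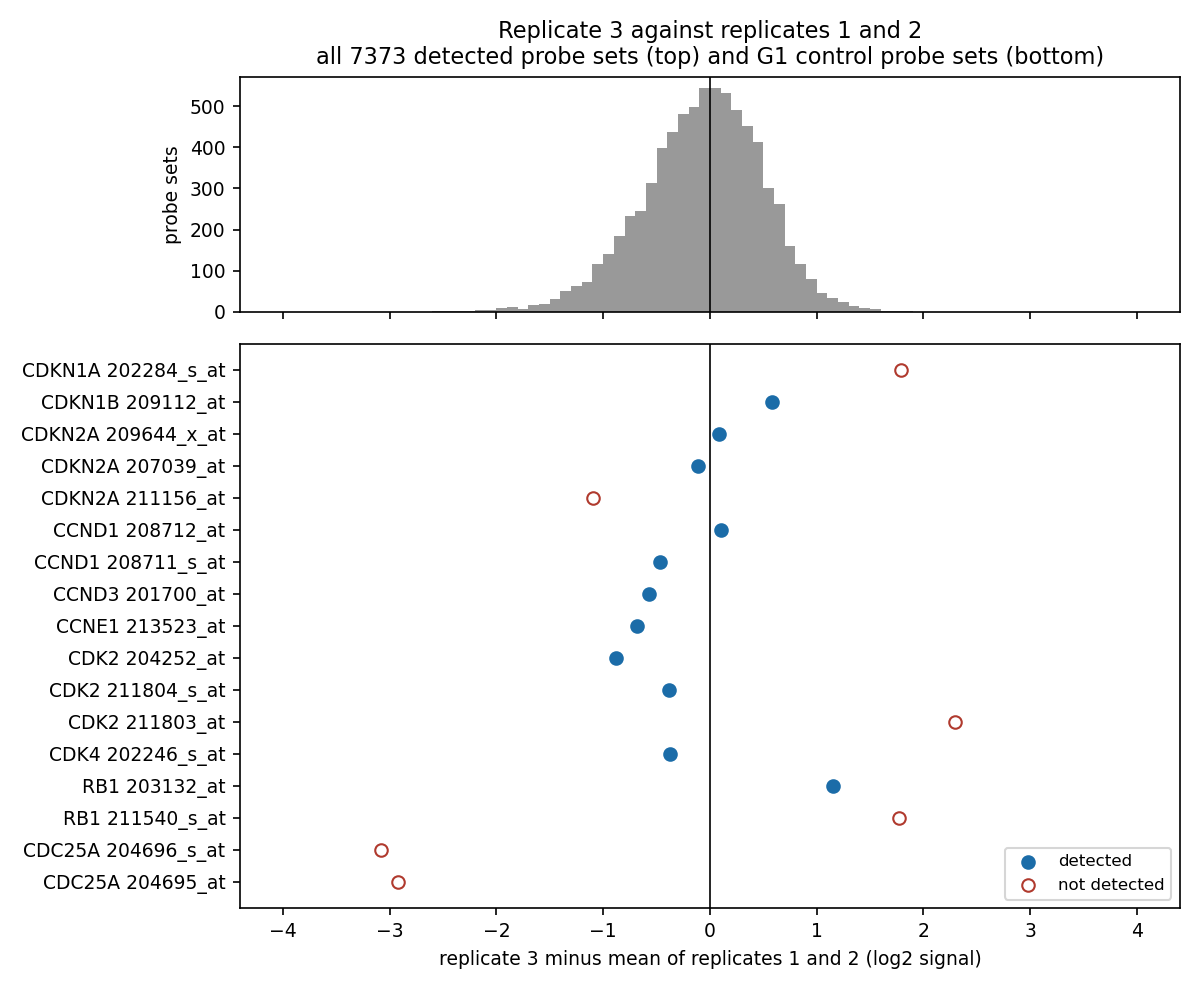
Replicate 3 minus the mean of replicates 1 and 2 in log2 signal, as a histogram of all 7373 detected probe sets (top) and for each G1 probe set (bottom, filled where detected). The CDC25A probe sets lie at -3.09 and -2.92. Both RB1 probe sets, CDKN1A and the undetected probe set 211803_at of CDK2 lie above 1, the last of these highest at 2.30. Of all these only 203132_at of RB1 was detected. The histogram gives no scale for the undetected ones, since a large drop on 1 array itself makes detection less likely.

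The rest of the pathway was read from 7 lists of 65 genes, of which 60 were measured. Of their 109 probe sets 74 were detected, against 38.7% of all probe sets. A detected probe set was found for 48 of the 60 genes, against 44% of all named genes. The genes driven by E2F in S phase were detected throughout, with 23 of 24 probe sets from 15 of 15 genes and a median of 3.29 log2 units over the limit. RRM2, a subunit of ribonucleotide reductase, had signals of 7432, 7547 and 7442 in replicates 1, 2 and 3 on 209773_s_at. Its other detected probe set, 201890_at, was less even, with 3576, 2865 and 4422. The thymidylate synthase TYMS had 5442, 8689 and 7266 on 202589_at, while its other probe set, 217684_at, was not detected. The replication helicase subunit MCM2 had 5510, 6304 and 4216. Among the detected probe sets of S phase genes, replicate 3 was below the mean of replicates 1 and 2 for 10 and above it for 13. Their median shift was 0.08. It is not set beside CDC25A, whose probe sets were undetected, since a probe set that drops far on 1 array is less likely to be detected.

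The other inhibitors that were measured lay below the limit, and CDKN2C, also listed, was not measured. None of the 8 probe sets of CDKN1C, CDKN2B and CDKN2D was detected by limma, and 0 passed at an unadjusted p under 0.05. The median lay at -4.04 log2 units, with 5 of the 8 probe sets from CDKN1C. CDKN1C, the remaining Cip/Kip gene, gave 69.6, 113 and 106 on 213348_at, and CDKN2B, the INK4 gene beside CDKN2A, gave 8.74, 25.1 and 11.4 on 207530_s_at. Among the other cyclins and kinases 9 of 16 probe sets were detected, from 6 of 10 genes. CDK1, the mitotic kinase, was detected on all 3 of its probe sets. It gave 4014, 3128 and 4148 on 210559_s_at, 1777, 1638 and 3688 on 203213_at and 2825, 2410 and 3981 on 203214_x_at. CCNA2, the cyclin of S phase and G2, had 2091, 2465 and 1829 on 203418_at and 2085, 1673 and 1658 on 213226_at. CCNC had 2810, 2666 and 4628. CCND2, the third D-type cyclin, was not detected on any of its 3 probe sets and gave 55.4, 4.12 and 17.7 on 200952_s_at. CCNA1 was not detected, with 67.0, 65.9 and 10.9.

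Among pocket proteins and E2F and DP factors 10 of 17 probe sets were detected, from 8 of 10 genes, with a median of 0.73 log2 units. This count was 6 of 17 without replicate 1 and 6 of 17 with the limit at the 99th percentile. Over all probe sets the counts in these settings were 6724 and 6410 of 19065, so the share in this list was then near that of all probe sets. TFDP1, the usual partner of the E2F proteins, had 4142, 4368 and 3785 on 212330_at and 856, 1326 and 721 on 204147_s_at. E2F6 had 505.6, 393 and 499. E2F4 had 2066, 2629 and 1016 on 38707_r_at, while its other probe set, 202248_at, was not detected (322, 362 and 128). E2F2, with 37.9, 46.6 and 10.5, and the RB1 relative RBL1, with 84.7, 68.8 and 126, were not detected. The other CDC25 phosphatases and the kinases that oppose them gave 6 of 7 probe sets from 4 of 4 genes. CDC25B, a relative of CDC25A, had 1401, 1671 and 664, CDC25C had 614.7, 526.7 and 474.5 on 205167_s_at, and the opposing kinase WEE1 had 914, 616 and 723 on 212533_at. CDC25B, like CDC25A, had its lowest signal in replicate 3, as did 42.4% of all detected probe sets. In CDC25C replicate 3 was the lowest array on 205167_s_at but the highest on 217010_s_at (257.5, 227.7 and 413.8).

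Parts of the ubiquitin ligases that degrade G1 regulators were detected on 16 of 21 probe sets, from 10 of 12 genes, with a median of 2.49 log2 units. SKP1, a core subunit, had 7500, 6528 and 8068 on 200718_s_at. CKS2 and CKS1B, small partners of the kinases, had 6886, 5404 and 6374 and 4297, 4813 and 5826. FBXO31, with 88.4, 83.2 and 98.2, and FBXW7, which marks cyclin E for degradation and had 92.3, 77.6 and 149.9, were not detected. Known upstream regulators of p21 and cyclin D1 gave 10 of 16 probe sets from 5 of 6 measured genes. MYC had 3609, 4198 and 3859, the interferon-induced factor IRF1 had 4375, 6324 and 4557, and KLF4 had 1887, 1710 and 1387 on 221841_s_at. MDM2 was not detected on any of its 5 probe sets and gave 72.1, 86.7 and 132 on 217373_x_at.

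**Figure D4:**
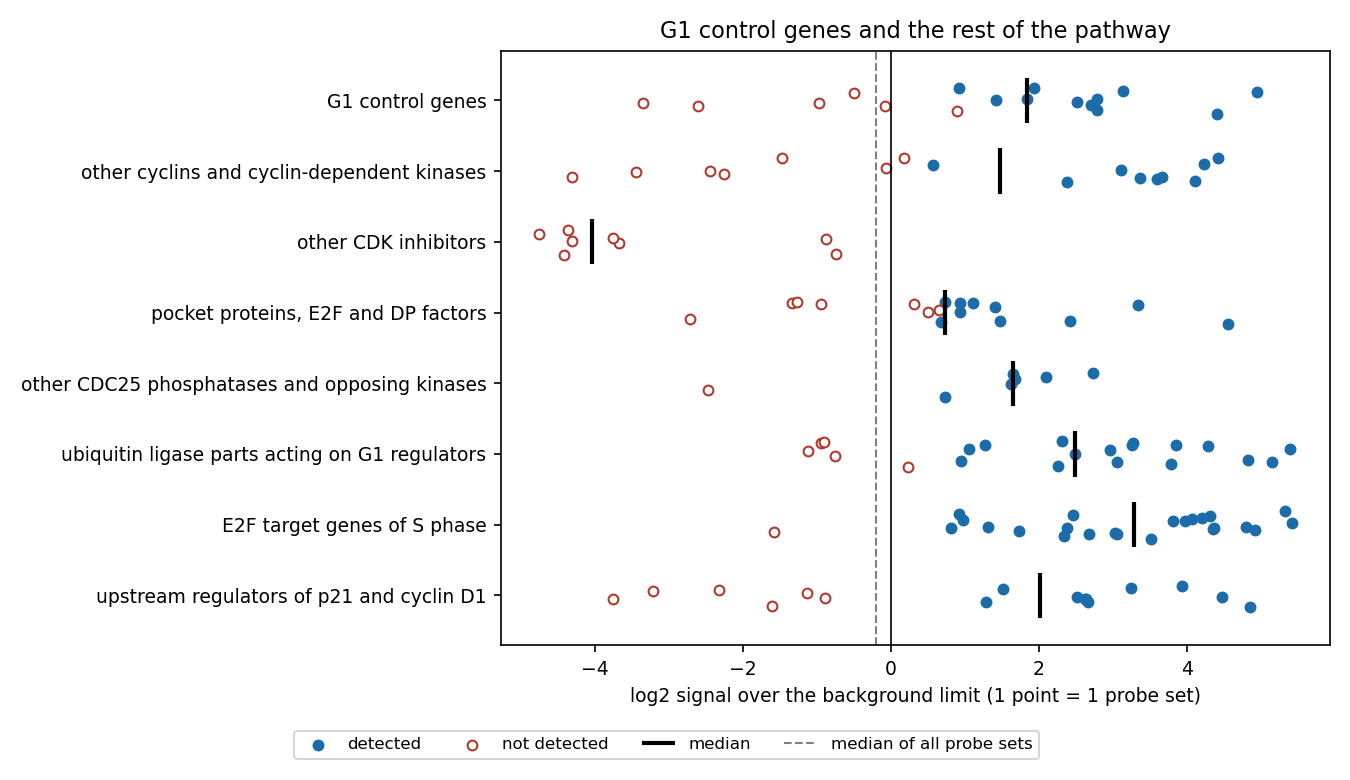
Log2 signal over the background limit of each probe set (1 point, filled where detected) for the G1 control genes and the 7 lists of the pathway, with black lines for list medians and a dashed line for the median of all probe sets (-0.20). The list medians run from -4.04 for the other CDK inhibitors to 3.29 for the E2F target genes of S phase.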

How the data were processed

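Gene expression was measured on Affymetrix arrays, 1 per culture, in 3 treated cultures. Biotin-labelled cRNA was made from total RNA, per the labels' protocols. The authors deposited linear intensity values per probe set, which the submitters' processing notes credit to MAS5 and to Affymetrix Expression Console 1.1. The mean of each array without its highest and lowest 2% was 500.3, so the values had been scaled before deposit. No source used here gives the background step or the presence calls.

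Of 22283 rows 6 were empty. The inferred order places 15 unnamed values first, then 100 probe sets numbered 200000 to 200099, then the 493 numbered below these, then the remaining 21622 as they stand in the file, with 47 unnamed values at the end. The 62 unnamed control values were left out. Only probe sets with a single symbol in the platform annotation were used (19065, while 1043 had several symbols and 2163 none).

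Intensity was taken to log2 with no offset, the log2 limit of the array was subtracted, and an intercept was fitted per probe set with limma 3.58.1 in R 4.3.3, the prior variance following the mean signal. The limit was treated as known. The procedure was tested on simulated data. With a single group, detection is the only test of a level. The 10 genes, the pathway and background lists and the inferred order were chosen with earlier results of these data known. The check in blocks and the comparison with probe sets of like signal were added after the values were seen. All 10 genes were named with every probe set. Of each pathway list up to 3 detected genes with the smallest adjusted p and up to 2 undetected genes with the largest were named. Of each marker list the genes with the smallest and the largest adjusted p were named. No genes of like pattern were named, since 3 arrays are too few. Alternatives were the limit, the scaling, an offset, a filter, the variance trend, probe set suffixes, the order of the names, summaries per gene and leaving out each replicate. RefSeq entries of assembly GRCh38.p14 served for promoters.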

Additional observations from a re-analysis of the deposited data

How the results depend on the processing

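No paired analysis was possible because the series has 1 group. The count of 11 detected G1 probe sets was 11 to 12 when a replicate was left out (7 to 9 genes), and 10 of 17 to 12 of 17 with the limit at the 99th and the 90th percentile. Over all 19065 probe sets the count was 6724 to 7422 and 6410 to 8197 in these settings. Leaving out probe sets with the _x_at and _s_at suffixes gave 7 of 10 G1 probe sets, 30 of 47 in the pathway lists and 3417 of 10100 in all, where fewer probe sets were tested. With 1 value per gene, 8 of 10 G1 genes were detected both by the brightest probe set and by the median. The pathway lists gave 46 and 45 of 60, and all genes gave 5159 and 4968 of 11963. Under the names as deposited, 0 G1 probe sets and 0 G1 genes were detected by limma, with 9 probe sets of the pathway lists and 1708 of all. The background genes take other values under those names too. Their limits were then 1396, 1022 and 1108 in replicates 1, 2 and 3, against 162, 186 and 173. The agreement between probe sets of a gene was r = 0.60, against 0.19 with names as deposited, 0.50 with all names displaced by 487 rows, 0.55 over the 2433 genes whose names differ in their leading characters, and 0.25 at the highest displacement away from those used.

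When a replicate was left out, CDKN1A ranged from -1.10 to 0.35 log2 units over the limit, CDC25A from -0.60 to 0.89 on 204695_at and from -1.75 to 0.049 on 204696_s_at. The main value of 204695_at, -0.08, was 0.23 with the limit at the 90th percentile, 0.035 with an offset of 32, 0.087 without suffixed probe sets and 0.00071 with names displaced by 487 rows, and passed in none of these. The displacement by 487 rows put CDKN1A at -2.98 (not detected), CDK4 at 2.0 and CCND3 at 3.36 (both detected), against -0.51, 4.41 and 2.79 in the inferred order. Under the names as deposited the signs turned for CCND3 (-0.52), RB1 (-2.79 on 203132_at and -2.41 on 211540_s_at), CDK2 (-0.86 on 204252_at and -1.07 on 211804_s_at), CDKN2A (-7.31 on 207039_at and -2.48 on 209644_x_at), CCND1 (-7.71 on 208711_s_at and -6.72 on 208712_at) and CCNE1 (-2.15). These values stand against the higher limits given above for the names as deposited. RB1 on 211540_s_at passed in 5 of 10 settings that kept the inferred order or the single displacement. The cause of these changes was not tested, apart from the order of the names.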
